A study of Homo sapiens with 6 samples.

Results

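The 48 genes described here encode the machinery that copies nuclear DNA. They were chosen by function, as the subunits of the origin recognition complex, the licensing factors, the MCM helicase and the factors that start it, the sliding clamp and its loader, the replicative polymerases, the single-strand binding protein RPA, and the enzymes that join Okazaki fragments, untangle DNA and make deoxyribonucleotides. Their measurements are 88 of the 41091 probe sets that name a single gene on an Affymetrix expression array, and every member was measured, among 19775 genes in all. The arrays compared a pair of cybrids, cells made by fusing an enucleated mitochondrial donor with a nuclear partner. In 10A/143B the mitochondria came from MCF10A, a non-tumorigenic breast epithelial line. In 468/143B they came from MDA-MB-468, a breast cancer line. Both groups share the nuclear partner, 143B p0, an osteosarcoma line without thymidine kinase activity whose cells had lost their mitochondrial DNA. Both were made with actinomycin-D and polyethylene glycol and grown out in bromodeoxyuridine without uridine, and each was measured on 3 arrays from RNA extracted in triplicate. The labels do not say whether a cybrid was 1 clone or a pool, or whether the triplicates were separate cultures, so the p-values reflect differences among these arrays alone, and that spread may be purely technical.

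Replication starts when the origin recognition complex, with CDC6 and CDT1, loads MCM helicases onto DNA in G1. In S phase the DBF4-dependent kinase CDC7, CDC45 and the GINS complex turn the loaded MCM ring into a moving helicase. Primase and polymerase alpha then lay down primers, the clamp loader RFC places PCNA on them, and polymerases epsilon and delta extend the leading and lagging strands. Most of these genes are transcribed under E2F control as cells enter S phase, so cultured tumour cells carry their mRNA in quantity. In RNA of a whole culture, fewer cells in S phase and less RNA per cell cannot be told apart.

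The arrays had median intensities between 20.4 and 24.4. Replicates 2 and 3 of each cybrid were near duplicates, with an SD of their log2 difference of 0.08 in 10A/143B and 0.09 in 468/143B, against 0.26 to 0.28 for differences from replicate 1 (over probe sets whose log2 level averaged more than 8). Results are therefore given from the fit to 6 arrays and, where the call changes, with replicates 2 and 3 averaged to 1 sample (2 against 2). For ACTB, the 3′ probe set divided by the 5′ one, which rises as RNA degrades, ran from 1.59 to 1.92 in 10A/143B and from 1.18 to 1.67 in 468/143B. For GAPDH it ran from 0.933 to 1.01 and from 0.966 to 1.07, so that the groups overlapped for both genes, and its part in the results was not tested. VIM, the intermediate filament of mesenchymal cells such as 143B, had log2 levels of 13.09 in 10A/143B and 13.04 in 468/143B (adjusted p = 0.673). Those levels come from its brightest probe set, and its further one was higher by 0.79 (adjusted p = 0.00769 over all probe sets). Of 10 mesenchymal and osteoblast-lineage markers 1 was higher (CDH11 by 1.30) and 4 lower (FN1 by -2.32, TWIST1 by -1.35, SPARC by -0.66 and RUNX2 by -0.23), RUNX2 not averaged (adjusted p = 0.215). COL1A1, at 0.58 on its brightest probe set, passed only with the replicate number as a block (adjusted p = 0.0479). A further probe set of COL1A1 went the other way (-1.53, adjusted p = 0.0178 over all probe sets). The rest gave -0.26, -0.42 and -0.22 and did not pass. COL1A2, a collagen gene of bone-forming cells, lay near the floor of the log2 scale, which is 4.09, at 4.60 and 4.63, in that order. Of 10 measured epithelial markers of the donor lines, 3 (KRT8, KRT18 and KRT19) were lower in 10A/143B and 0 higher, and averaged only KRT8 passed (KRT18 adjusted p = 0.0503, KRT19 0.0584). The summed intensity of the 10 did not overlap between groups, at 4979 to 5462 against 6425 to 6988. Without KRT8 and KRT18 their intensities summed to between 90.4 and 109.9 on the 10A/143B arrays and between 86.6 and 103.2 on those of 468/143B, and KRT5, a basal keratin of MCF10A, had log2 levels of 4.09 and 4.12. The part of these markers in the results was not tested.

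Replication genes differed between the cybrids in both directions, with members of the same complex on opposite sides. In 10A/143B 13 of 48 were higher and 15 lower at an adjusted p under 0.05, and 20 did not pass. The median log2 difference of the 48 was -0.03, and that of all genes -0.02. On the brightest probe set of each gene 4 members differed at least 2-fold, RFC1, RFC4, DBF4 and CDC7, and all 4 were higher. The share and direction of all genes past 2-fold were not counted. Past a difference of 0.5 the share called was 27.1% for members and for all genes. On the same probe sets the largest decrease was that of POLD1, the catalytic subunit of polymerase delta, which was 1.89-fold lower. Second probe sets of MCM5 (-1.33) and CDT1 (-1.18) were lower by more than POLD1 (-0.92). Further probe sets of FEN1 (1.07), TOP2A (1.06) and GINS4 (1.66) were higher at least 2-fold, those of TOP2A and GINS4 being dim. All differences are 10A/143B minus 468/143B on the scale of log2(intensity + 16), from limma fitted to all 19775 genes, with Benjamini-Hochberg adjusted p, the fitted standard error (SE) and n = 3 arrays per group.

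Beside the background, the share of members called was near that of all genes on some measures and above it on others. Among all genes 35.6% passed, 19.9% higher and 15.7% lower, against 58.3% of members. Every group mean of a member lay at a log2 level of 6.93 or above, and the part of level in these shares was not tested. Among the 13121 genes whose higher group mean reached the median of all probe sets (5.24), 55.3% passed, 30.6% higher and 24.8% lower. In the fit restricted to those genes 62.5% of members passed, 14 higher and 16 lower. A difference of at least 0.5 past the threshold was found for 27.1% of members and for 27.1% of all genes. Arrays of the groups did not overlap for 32 members (66.7%), 15 of them higher and 17 lower, against 45.8% of all genes (24.2% higher and 21.6% lower). With replicates 2 and 3 averaged, 10 members were higher and 10 lower (41.7%), against 22.7% of all genes (13.8% higher and 8.9% lower). With the replicate number as a block 15 members were higher and 17 lower, against 39.2% of all genes (21.3% higher and 17.8% lower). The balance of directions moved with scaling, since 11 members were higher and 19 lower after quantile normalization and 10 and 19 after median centring. Quantile normalization also moved the share of higher calls among all genes from 55.8% to 45.7%, and median centring moved it to 46.0% and the median of all genes from -0.02 to -0.12.

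**Figure D1:**
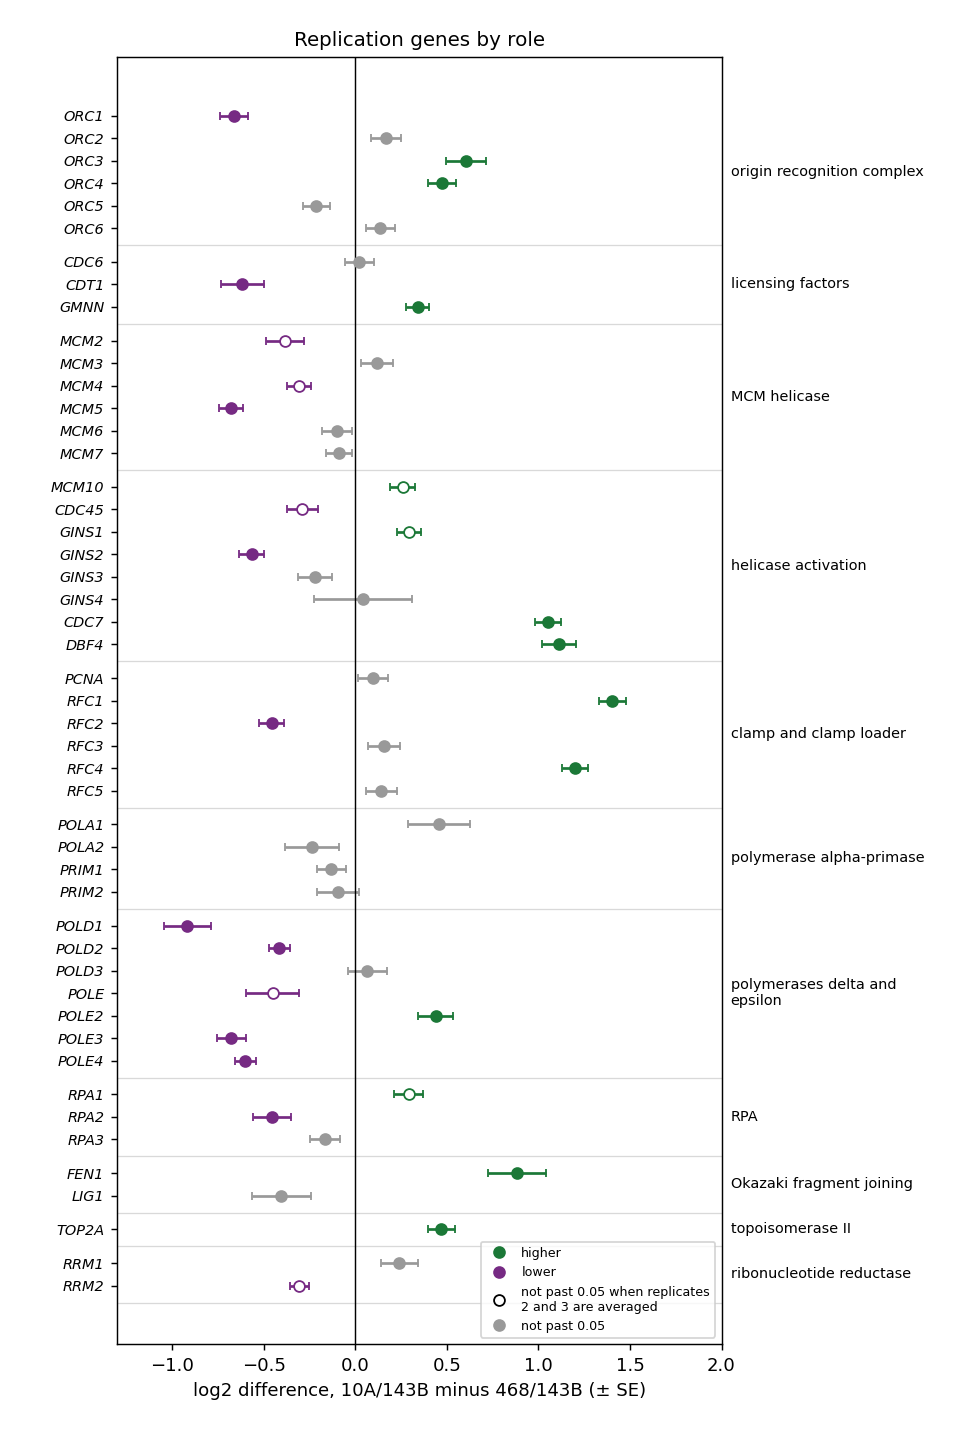
Log2 difference, 10A/143B minus 468/143B, of the 48 replication genes by role, with bars for the SE of the limma fit to 3 against 3 arrays. Green genes are higher and purple genes lower at an adjusted p under 0.05, open symbols lose the call with replicates 2 and 3 averaged, and grey genes did not pass. RFC1 lies highest at 1.40 and POLD1 lowest at -0.92, and the clamp loader, the origin recognition complex and the helicase activators each hold genes on both sides of 0.

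The promoters were searched for motifs known from cell cycle genes. RefSeq windows (GRCh38.p14) of 250 bases before the gene start were found for 42 members and searched on both strands for the E2F motif (TTTCCCGC, TTTCGCGC, TTTGCCGC or TTTGGCGC), the CCAAT box (CCAAT) and the cell cycle homology region, CHR (TTTGAA). Of the 42 members, 13 (31.0%) held the E2F motif, against 3.72% of 15843 protein-coding promoters. The CCAAT box was found in 24 (57.1%), against 34.5%, and the CHR in 2 (4.76%), against 10.8%. By call, the E2F motif was in 1 of 13 higher members (ORC3), in 4 of 12 lower members (CDT1, GINS2, POLE and POLE4) and in 8 of 17 that did not pass (LIG1, MCM3, MCM6, MCM7, PCNA, POLA1, POLA2 and RFC3). A match is a description of these letters and not of a factor bound there, and these shares were not tested. The other replication factors described further on held the E2F motif in 3 of 39 windows (7.69%).

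The windows below show CDC7 and DBF4, a kinase and its activating subunit that were higher together in 10A/143B, then GINS2, which was lower, MCM6, which holds the most E2F matches and did not pass, and TOP2A, a late S and G2 gene that was higher. They are written 5′ to 3′ along the gene, ending at the base before its start, with motif matches on either strand in capitals. They lie at chr1:91500601-91500850 (plus strand) for CDC7, chr7:87876243-87876492 (plus) for DBF4, chr16:85688955-85689204 (minus) for GINS2, chr2:135876444-135876693 (minus) for MCM6 and chr17:40417897-40418146 (minus) for TOP2A.
CDC7: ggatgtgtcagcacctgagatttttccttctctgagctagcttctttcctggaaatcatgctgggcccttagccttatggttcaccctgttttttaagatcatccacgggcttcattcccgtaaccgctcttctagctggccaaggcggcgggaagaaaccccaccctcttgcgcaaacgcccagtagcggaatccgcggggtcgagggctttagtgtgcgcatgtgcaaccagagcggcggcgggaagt
DBF4: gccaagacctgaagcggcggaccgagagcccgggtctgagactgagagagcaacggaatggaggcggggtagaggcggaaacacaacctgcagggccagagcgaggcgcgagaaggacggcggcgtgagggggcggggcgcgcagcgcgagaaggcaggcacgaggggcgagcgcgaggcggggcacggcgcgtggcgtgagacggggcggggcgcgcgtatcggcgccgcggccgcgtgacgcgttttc
GINS2: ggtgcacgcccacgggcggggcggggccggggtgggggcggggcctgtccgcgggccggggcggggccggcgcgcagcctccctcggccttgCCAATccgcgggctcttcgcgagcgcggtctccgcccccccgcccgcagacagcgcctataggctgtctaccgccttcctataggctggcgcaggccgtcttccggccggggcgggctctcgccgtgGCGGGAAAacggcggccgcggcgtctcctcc
MCM6: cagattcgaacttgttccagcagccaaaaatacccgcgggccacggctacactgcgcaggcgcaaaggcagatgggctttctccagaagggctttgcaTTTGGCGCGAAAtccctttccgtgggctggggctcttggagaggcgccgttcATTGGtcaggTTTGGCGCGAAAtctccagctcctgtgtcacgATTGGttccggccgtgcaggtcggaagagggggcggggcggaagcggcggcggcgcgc
TOP2A: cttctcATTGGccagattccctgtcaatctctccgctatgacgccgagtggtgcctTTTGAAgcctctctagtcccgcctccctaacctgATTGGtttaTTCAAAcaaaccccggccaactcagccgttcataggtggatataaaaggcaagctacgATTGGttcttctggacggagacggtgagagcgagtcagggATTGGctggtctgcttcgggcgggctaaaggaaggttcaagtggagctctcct

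In these windows CDC7 and DBF4 held none of the searched letters. GINS2 had 1 E2F match on the opposite strand, 31 to 24 bases before the start, and 1 CCAAT box. MCM6 had 4 E2F matches, in 2 overlapping pairs read from opposite strands (152 to 141 and 90 to 79 bases before the start), with a CCAAT box on the opposite strand after each. TOP2A had 4 CCAAT boxes, all on the opposite strand, and 2 CHR matches.

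The origin recognition complex, which marks where replication can start, was divided. ORC1, the subunit that is made and degraded with the cell cycle, had intensities of 229, 231 and 223 on the 10A/143B arrays (replicates 1, 2 and 3, here and below) and of 380, 367 and 360 on the 468/143B arrays. Every 10A/143B array lay below every 468/143B array, and ORC1 was 1.58-fold lower (log2 -0.66 ± 0.08 SE, adjusted p = 1.98e-04). ORC3 went the other way, at 744, 584 and 560 against 428, 402 and 388. Its groups did not overlap, replicate 1 of 10A/143B stood highest, and the gene was 1.52-fold higher (0.60 ± 0.11, adjusted p = 0.00244). ORC4 was also higher (0.47 ± 0.08, adjusted p = 0.00132), and its further, dimmer probe set gave 0.86 (adjusted p = 0.00834, or 0.0637 with replicates 2 and 3 averaged). Differences of 0.17 ± 0.08 for ORC2, -0.21 ± 0.07 for ORC5 and 0.14 ± 0.08 for ORC6 did not pass (adjusted p = 0.146, 0.0538 and 0.227). In sum 2 of 6 subunits were higher and 1 lower.

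Among licensing factors, CDT1, which brings MCM rings to origins, and its inhibitor geminin (GMNN) moved in opposite directions. CDT1 had intensities of 481, 362 and 355 in 10A/143B and of 657, 600 and 588 in 468/143B. Its groups did not overlap and it was 1.53-fold lower (-0.62 ± 0.12, adjusted p = 0.00327), with a larger difference of -1.18 ± 0.12 on its other probe set. GMNN was 1.27-fold higher (0.34 ± 0.06, adjusted p = 0.00263, and 0.0487 with replicates 2 and 3 averaged). The loading ATPase CDC6 had a difference of 0.02 ± 0.08 (adjusted p = 0.865), and its groups overlapped.

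Of the 6 subunits of the MCM ring, the replicative helicase, 3 were lower and 0 higher. MCM5 stood at 526, 530 and 508 in 10A/143B and at 855, 798 and 879 in 468/143B. These sets of values lay far apart, with MCM5 1.60-fold lower (-0.68 ± 0.07, adjusted p = 7.19e-05), and its other probe set gave -1.33 ± 0.08. MCM2 (-0.38 ± 0.10, adjusted p = 0.0194) and MCM4 (-0.31 ± 0.07, adjusted p = 0.00704) also passed, but not with replicates 2 and 3 averaged (adjusted p = 0.101 and 0.106). MCM2 was also lost without replicate 2 or 3 of 468/143B (adjusted p = 0.0852 and 0.0858). All 4 further probe sets of MCM4 were lower as well, from -0.32 to -0.72, and 3 of them passed, of which 1 passed averaged (adjusted p = 0.0420). MCM3 (0.12 ± 0.09), MCM6 (-0.10 ± 0.08) and MCM7 (-0.09 ± 0.07) did not pass. The probe set decides part of this, since a second, nearly as bright probe set of MCM7 was lower by 0.48 ± 0.05 (adjusted p = 2.33e-04, or 0.0157 averaged), whereas a dimmer one of MCM6 was higher by 0.59 ± 0.16 (adjusted p = 0.0246, or 0.129 averaged).

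The factors that turn the loaded ring into a helicase held the clearest pair. CDC7, the kinase that phosphorylates MCM subunits, had intensities of 666, 600 and 626 in 10A/143B and of 296, 304 and 286 in 468/143B. Its partner DBF4, an activating subunit of the kinase, had 832, 873 and 832 against 440, 347 and 365. For both genes all 10A/143B arrays lay far above all 468/143B arrays. CDC7 was 2.08-fold higher (1.05 ± 0.07, adjusted p = 1.47e-05) and DBF4 2.17-fold (1.11 ± 0.09, adjusted p = 3.36e-05), and both kept their calls without any single array. Each gene has 1 probe set.

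Other activators were less uniform. GINS2, a subunit of the GINS complex that joins MCM and CDC45, had 942, 867 and 904 in 10A/143B and 1438, 1314 and 1287 in 468/143B. The groups stood apart and GINS2 was 1.48-fold lower (-0.57 ± 0.07, adjusted p = 2.1e-04), while its further probe sets were dim, with differences of 0.04 and -0.02. GINS1, another subunit, was higher (0.30 ± 0.06, adjusted p = 0.00661, but 0.0907 averaged and 0.0519 with median centring), so the complex had calls in both directions in the fit to 6 arrays. Averaging the probe sets of a gene removed the call of GINS2 (-0.18, adjusted p = 0.269). GINS3 differed by -0.22 ± 0.09 (adjusted p = 0.109). CDC45, which holds the helicase together, was lower by 0.29 ± 0.09 (adjusted p = 0.0286, but 0.144 averaged), and 4 of the 6 fits without 1 array lost the call (adjusted p up to 0.0864; without replicate 3 of 10A/143B or any replicate of 468/143B). The initiation factor MCM10 was higher by 0.26 ± 0.07 (adjusted p = 0.0167, but 0.164 averaged, 0.143 with median centring and 0.0899 with quantile normalization). That call was also lost without replicate 3 of 10A/143B (adjusted p = 0.0750) or of 468/143B (adjusted p = 0.0682). The further probe sets of MCM10 gave 0.48 and 0.47 (adjusted p = 0.00251 and 0.00516, or 0.0465 and 0.1115 averaged).

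GINS4 turned on a single array. Its intensities were 272, 284 and 311 in 10A/143B but 162, 365 and 367 in 468/143B, where replicate 1 lay below all other arrays and replicates 2 and 3 above them. With 6 arrays its difference was 0.04 ± 0.27 (adjusted p = 0.927). Without replicate 1 of 468/143B it became -0.33 (adjusted p = 0.0243), and in replicate 1 of both cybrids alone it was 0.70. A pair of dimmer probe sets of GINS4 was higher in 10A/143B (0.93 ± 0.19 and 1.66 ± 0.26, adjusted p = 0.00576 and 0.00159, or 0.0564 and 0.0127 averaged), so the gene has no settled direction.

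**Figure D2:**
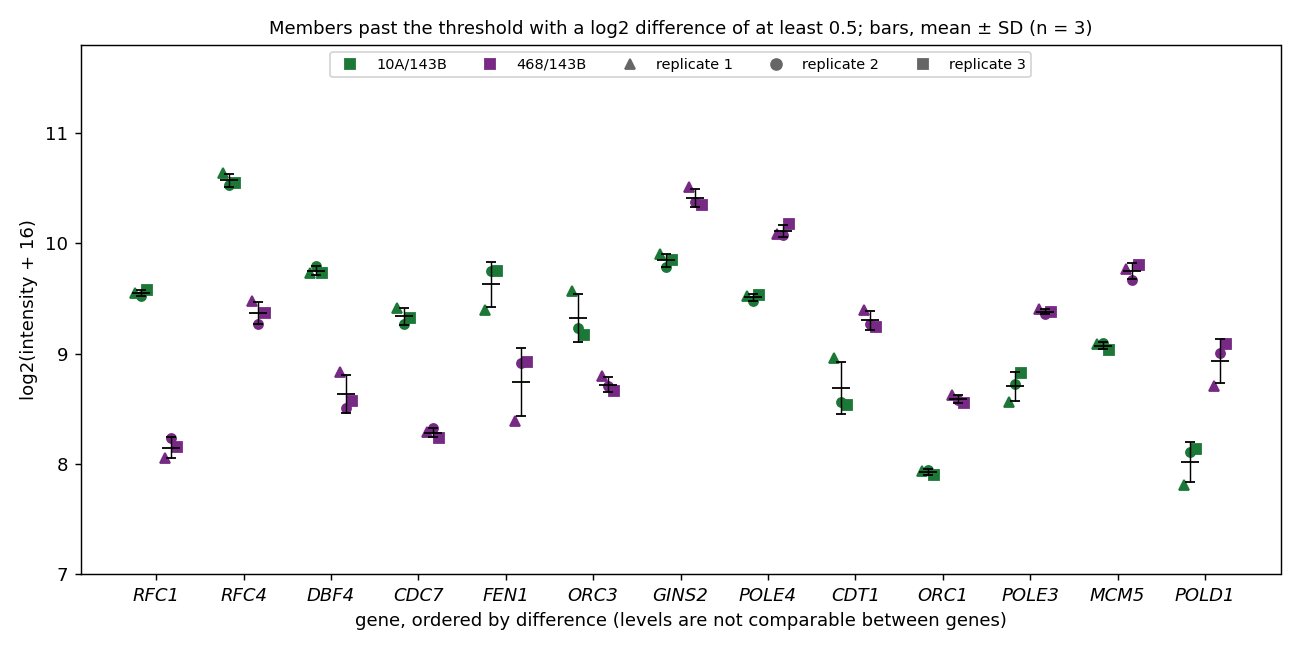
Log2(intensity + 16) on each array of the 13 members past the threshold with a log2 difference of at least 0.5, with 10A/143B in green, 468/143B in purple, a marker for each replicate number and bars showing the mean ± SD over 3 arrays. Groups do not overlap for any of the 13, of which 6 are higher and 7 lower in 10A/143B, and RFC1 shows the widest gap, 9.55 ± 0.03 against 8.15 ± 0.09.

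On the brightest probe sets, the largest differences of the machinery were those of RFC1 and RFC4 of the clamp loader. The median difference of clamp and clamp loader was 0.15. RFC1, the large subunit of the loader, had intensities of 734, 719 and 750 in 10A/143B and of 249, 286 and 269 in 468/143B. The lowest 10A/143B array was far above the highest of the other group. RFC1 was 2.65-fold higher (1.40 ± 0.07, adjusted p = 5.25e-06). A further probe set agreed in direction (0.90 ± 0.08, adjusted p = 8.06e-05), and another, near the floor of the array, gave -0.0026 ± 0.20. RFC4, a small subunit, had 1574, 1458 and 1479 against 695, 600 and 644. Its groups were as clearly apart, with RFC4 2.30-fold higher (1.20 ± 0.07, adjusted p = 7.54e-06). RFC2, another small subunit, was lower by 0.46 ± 0.07 (adjusted p = 9.61e-04), and by 0.54 ± 0.08 on its second probe set. RFC3 (0.16 ± 0.09, adjusted p = 0.204) and RFC5 (0.14 ± 0.08, adjusted p = 0.236) did not pass, but a further probe set of RFC5 was higher (0.53 ± 0.09, adjusted p = 0.00298). PCNA, the clamp that RFC loads, differed by 0.10 ± 0.08 (adjusted p = 0.417), with intensities of 2106, 1687 and 1783 against 1710, 1746 and 1722. Replicates 1 and 3 of 10A/143B lay above all 468/143B arrays and replicate 2 below them, so the groups overlapped.

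No subunit of the polymerase alpha-primase, which lays down primers, passed in the fit to 6 arrays, where 35.6% of all genes passed. The largest difference was that of the catalytic subunit POLA1, at 143, 151 and 160 in 10A/143B against 81.6, 133 and 108 in 468/143B. All 10A/143B arrays were higher, but the 468/143B arrays were spread widely (SD 0.31 on the log2 scale), and the difference of 0.46 ± 0.17 had an adjusted p of 0.0653. It passed with the replicate number as a block (adjusted p = 0.0361) and without replicate 2 of 468/143B (0.61, adjusted p = 0.0286). POLA2 (-0.23 ± 0.15), PRIM1 (-0.13 ± 0.08) and PRIM2 (-0.09 ± 0.12) had overlapping groups, and their adjusted p were 0.270, 0.253 and 0.591.

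Of the 7 subunits of polymerases delta and epsilon among the members, 5 were lower and 1 higher, with a median difference of -0.45. That is 85.7% called, against 35.6% of all genes (15.7% lower). Among the 13121 genes past the median level 55.3% were called (24.8% lower). POLD1, the catalytic subunit of polymerase delta, had intensities of 208, 260 and 265 in 10A/143B and of 402, 498 and 526 in 468/143B. In both cybrids replicate 1 was lowest, yet the groups did not overlap, and POLD1 was 1.89-fold lower (-0.92 ± 0.13, adjusted p = 5.76e-04). POLD2, its second subunit, was 1.33-fold lower (-0.41 ± 0.06, adjusted p = 5.84e-04), whereas POLD3 differed by 0.07 ± 0.11 (adjusted p = 0.689). The histone-fold subunits of polymerase epsilon, which pair with each other, were lower together. POLE3 had 362, 407 and 436 against 662, 639 and 648, and POLE4 had 719, 695 and 724 against 1067, 1060 and 1136. Neither gene had overlapping groups. POLE3 was 1.60-fold lower (-0.68 ± 0.08, adjusted p = 2.46e-04) and POLE4 1.51-fold (-0.60 ± 0.06, adjusted p = 8.62e-05), with -0.51 on a second, bright probe set of POLE4. The catalytic subunit POLE was lower by 0.45 ± 0.14 (adjusted p = 0.0396, but 0.225 averaged), a call lost without any single array except replicate 1 of 468/143B (adjusted p up to 0.149). POLE2, which links polymerase epsilon to the helicase, was the exception in direction, 1.36-fold higher (0.44 ± 0.10, adjusted p = 0.00656).

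RPA, which coats single-stranded DNA, is built of 3 subunits that differed in direction. RPA2 had intensities of 434, 534 and 564 in 10A/143B against 676, 755 and 676 in 468/143B. Replicate 1 of 10A/143B lay lowest, the groups did not overlap, and RPA2 was 1.37-fold lower (-0.45 ± 0.10, adjusted p = 0.00839). RPA1, the large subunit, was higher by 0.29 ± 0.08 (adjusted p = 0.0201, but 0.185 averaged, 0.0970 with median centring and 0.0525 with quantile normalization). Its other bright probe set gave 0.35 (adjusted p = 0.00695, but 0.125 averaged). The call of RPA1 was also lost without replicate 3 of 10A/143B (adjusted p = 0.0850) and without replicate 2 or 3 of 468/143B (adjusted p = 0.0853 and 0.0752). RPA3 differed by -0.17 ± 0.08 (adjusted p = 0.158) and passed with the replicate number as a block (adjusted p = 0.0486).

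FEN1, the nuclease that trims the flaps of Okazaki fragments, was higher in 10A/143B, at 657, 843 and 843 against 320, 468 and 471. Replicate 1 was lowest in both cybrids, and the groups did not overlap (1.84-fold, 0.88 ± 0.16, adjusted p = 0.00233). A second probe set of FEN1 gave 1.07 ± 0.12 (adjusted p = 2.34e-04). LIG1, the ligase that seals the fragments after FEN1, had a difference of -0.40 ± 0.16 (adjusted p = 0.0899) and passed with the block (adjusted p = 0.00729). TOP2A, which untangles copied DNA, had 1380, 1629 and 1552 against 1031, 1113 and 1128. These values did not overlap, and TOP2A was 1.39-fold higher (0.47 ± 0.08, adjusted p = 0.00126). A dim further probe set of TOP2A gave 1.06 (adjusted p = 0.00153, or 0.0261 averaged). A bright one gave 0.57 ± 0.26 and did not pass (adjusted p = 0.139).

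Ribonucleotide reductase makes the deoxyribonucleotides for replication. Its small subunit RRM2 had 1924, 1808 and 1833 in 10A/143B and 2257, 2353 and 2272 in 468/143B. The groups stood apart, with RRM2 1.24-fold lower (-0.30 ± 0.05, adjusted p = 0.00211), but the call was lost with replicates 2 and 3 averaged (adjusted p = 0.0720), and its second probe set gave -0.02 ± 0.09. The large subunit RRM1 differed by 0.24 ± 0.10 (adjusted p = 0.108), or adjusted p = 0.00555 with the replicate number as a block.

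Probe sets of the same gene mostly told the same direction. Of the 48 members 25 have several probe sets, which gives 40 further probe sets, and 19 of these passed when each probe set was tested on its own. Among them 14 belonged to called members and had the same direction, 0 had the opposite direction, and 5 belonged to members not called on their brightest probe set (MCM6, MCM7, RFC5 and GINS4 with 2). Over all 88 member probe sets 53.4% passed, against 31.0% of the 41091 probe sets (18.6% higher and 12.4% lower).

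**Figure D3:**
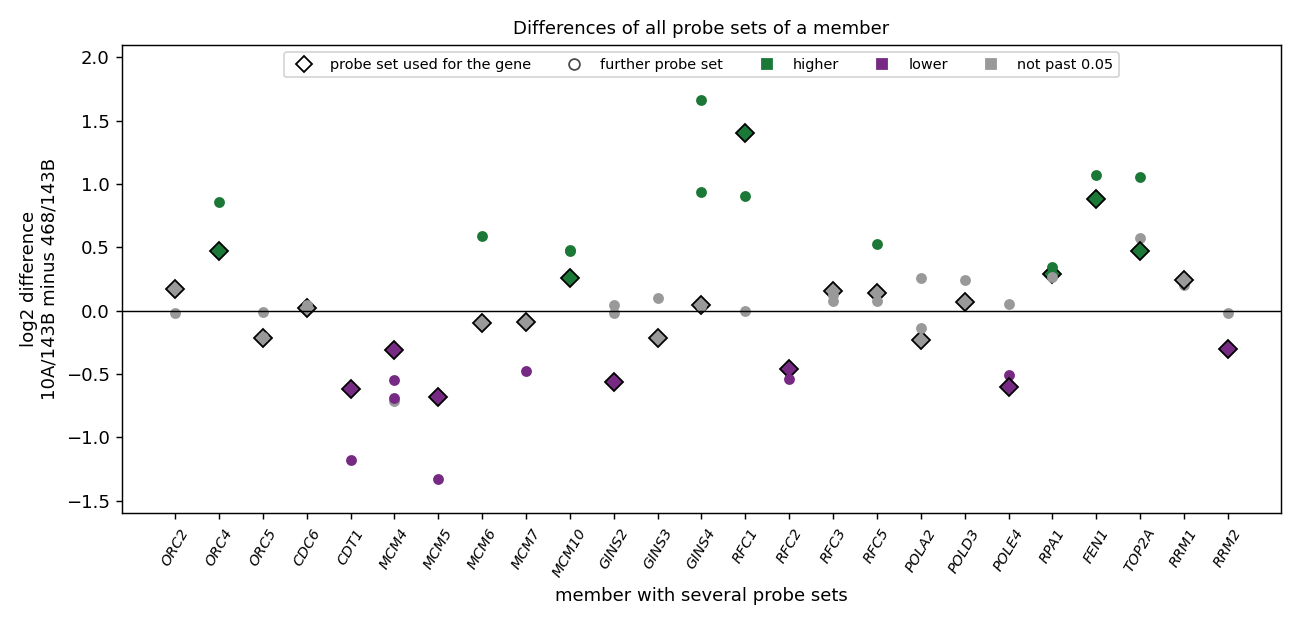
Log2 difference, 10A/143B minus 468/143B, of every probe set of the 25 members with several, the brightest (used for the gene) as a diamond and further ones as circles, in green where higher, purple where lower and grey where the adjusted p over all probe sets did not pass. GINS4 has circles up to 1.66 above a diamond at 0.04, and MCM5 one at -1.33 below its diamond at -0.68.

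Replicate 1, the array that stood apart within each cybrid, gave differences of another size for some members, such as POLE2 (0.71 in replicate 1 and 0.31 in the others) and RPA1 (0.10 and 0.39). Of the 28 calls 20 remained with replicates 2 and 3 averaged, and MCM2, MCM4, MCM10, CDC45, GINS1, POLE, RPA1 and RRM2 were lost. Leaving out 1 array also brought in calls. Without replicate 1 of 10A/143B these were ORC5 (-0.27, adjusted p = 0.00823), MCM6 (-0.19, adjusted p = 0.0141), RFC3 (0.23, adjusted p = 0.0368), PRIM1 (-0.20, adjusted p = 0.0322), RPA3 (-0.25, adjusted p = 0.00821) and RRM1 (0.34, adjusted p = 0.0162). Without replicate 1 of 468/143B they were LIG1 (-0.56, adjusted p = 0.0180) and RFC5 (0.23, adjusted p = 0.0291), beside GINS4.

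**Figure D4:**
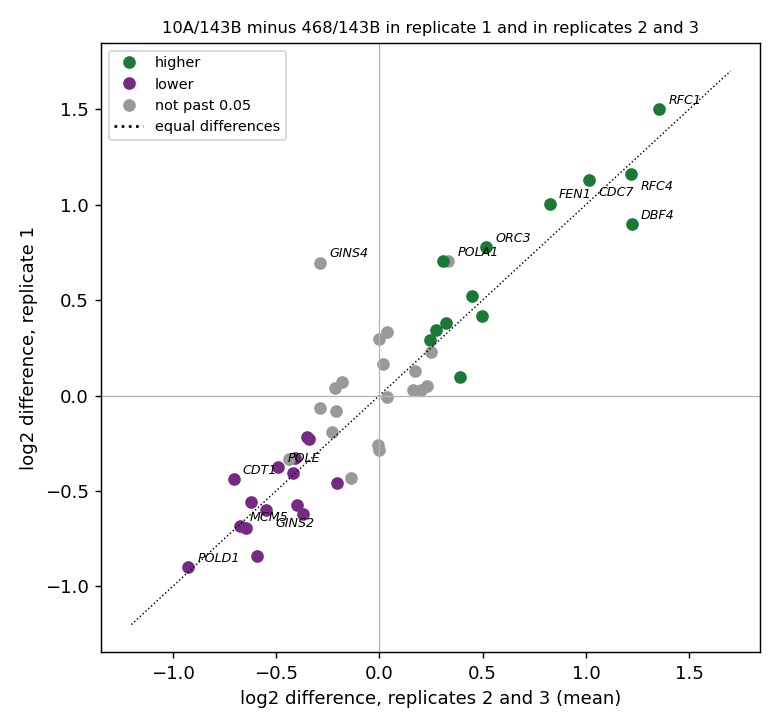
Log2 difference, 10A/143B minus 468/143B, in replicate 1 against the mean of replicates 2 and 3 for the 48 members, with the dotted line for equal differences. Called members (green and purple) have groups that do not overlap, which fixes their sign on both axes, and GINS4 lies off the line at -0.29 and 0.70.

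Differences in this series move with gene length and with chromosome, and both values are given for the members. Across the 48 genes, which are not independent, the rank correlation of log2 difference with gene length was 0.218, and across 19735 genes with a length it was 0.232. Called members had a median length of 40.9 kb where higher and 23.3 kb where lower, and members that did not pass had one of 40.4 kb. With the length trend of all genes removed, 26 of the 28 calls remained, and 11 members were higher and 18 lower, against 35.0% of all genes called (18.3% higher and 16.6% lower). The others, MCM10 (0.17, adjusted p = 0.0902) and RPA1 (0.155, adjusted p = 0.178), were lost, and ORC5 (-0.37, adjusted p = 0.00493), LIG1 (-0.51, adjusted p = 0.0402) and RPA3 (-0.32, adjusted p = 0.0146) passed as lower. RFC1 lies on chromosome 4, where the median difference was 0.62 over 265 protein-coding genes averaging a log2 level of more than 7, and RFC1 exceeded it at 1.40. Chromosome 16, with a median of -0.41 over 345 such genes, holds CDT1 (-0.62), GINS2 (-0.57), GINS3 (-0.22) and ORC6 (0.14). POLD1 (-0.92) and LIG1 (-0.40) lie on chromosome 19, with a median of -0.38 over 411 genes. CDC7 (chromosome 1), RFC4 (chromosome 3), DBF4 (chromosome 7) and FEN1 (chromosome 11) lie elsewhere, where the medians were 0.02, 0.17, 0.16 and -0.16. The part of chromosome in these differences was not tested.

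Genes that work around this core were also called in both directions, but more often as higher. Of 46 measured factors of initiation, fork protection, alternative clamp loading, chromatin assembly and nucleotide supply, 23 were higher and 7 lower in 10A/143B (17 and 5 averaged), with a median of 0.37. The share called was 65.2%, against 35.6% of all genes (19.9% higher and 15.7% lower) and 55.3% of genes past the level filter (30.6% and 24.8%). With replicates 2 and 3 averaged, 13.8% of all genes were higher and 8.9% lower. MCM9 (0.58) and ATAD5 (0.54) passed only with the replicate number as a block (adjusted p = 0.0328 and 0.0497). Activators and regulators of initiation included TOPBP1, which helps to load CDC45 (1.33 ± 0.08), TICRR (0.78 ± 0.10) and RIF1, which counteracts CDC7 (1.14 ± 0.14), all higher. Of 6 measured fork protection genes 4 were higher and 0 lower (3 averaged, without CLSPN, adjusted p = 0.0918), led by ETAA1 (1.57 ± 0.22, from a dim 4.53 in 468/143B) and WDHD1, which tethers polymerase alpha to the fork (1.30 ± 0.14). DSCC1, of the clamp loader that acts in cohesion, was 3.56-fold higher (1.83 ± 0.09, adjusted p = 4.45e-06), whereas CHTF18 of the same loader was lower (-0.98 ± 0.19, adjusted p = 0.00386). Of 8 other replisome genes 3 were higher and 4 lower. Lower were POLD4, the small subunit of polymerase delta that is no member of the set of 48 (-1.12 ± 0.10), and the ribonuclease H2 subunits RNASEH2A (-0.60 ± 0.06), RNASEH2B (-0.54 ± 0.13) and RNASEH2C (-0.56 ± 0.08). A further probe set of RNASEH2B passed the other way (0.86 ± 0.17), as did 2 of MCMBP (0.46 and 0.73, against -0.39 on the brightest), and neither gene passed averaged (adjusted p = 0.153 and 0.146). The topoisomerases TOP1 (1.25 ± 0.08) and TOP2B (1.16 ± 0.14) were higher beside TOP2A, and so was DNA2, a nuclease that works with FEN1 (1.28 ± 0.19).

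Nucleotide supply had 4 of 7 measured genes higher and 1 lower (3 and 1 averaged, without DUT, adjusted p = 0.0646). The p53-inducible ribonucleotide reductase subunit RRM2B was 2.11-fold higher (1.08 ± 0.13) and thymidylate kinase DTYMK 1.93-fold higher (0.95 ± 0.07), while TYMS, which makes thymidylate, differed by -0.01 ± 0.05. TK1, the thymidine kinase that selection in bromodeoxyuridine acts on, was lower (-0.89 ± 0.08). Among 11 genes used as markers of proliferation, 5 were higher and 2 lower (4 and 2 averaged), so calls went both ways here too. Over all genes 19.9% were higher and 15.7% lower (13.8% and 8.9% averaged). MKI67 (0.84 ± 0.08), CCNE2 (1.07 ± 0.15), CDK1 (0.51 ± 0.05), CCNA2 (0.41 ± 0.06) and AURKA (0.26 ± 0.07, not past the threshold averaged, adjusted p = 0.0808) were higher, PLK1 (-0.89 ± 0.09) and MYBL2 (-0.47 ± 0.10) were lower, and E2F1 itself differed by 0.02 ± 0.15 (adjusted p = 0.942).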

How the data were processed

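Array intensities, 1 per probe set and array on a linear scale, were deposited by the authors. Per the labels' protocols RNA was extracted in triplicate and labelled with biotin. How probe intensities were summarised, background-corrected and scaled was not given in the sources used here, nor was a genome build. The lowest of the 54675 intensities per array was 1, and no detection calls were used. Groups and replicate numbers were taken from the source names, which number the arrays differently from the titles.

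Values were used as deposited, as log2(intensity + 16), and a fold change is on that scale. Probe sets with a single symbol (41091, of which 41037 were updated through Entrez identifiers to RefSeq names) were kept, and the brightest on average stood for each gene. The fit of 10A/143B against 468/143B used limma 3.58.1 under R 4.3.3 (lmFit, eBayes with an intensity trend, Benjamini-Hochberg at 0.05). The code was also run on simulated data. That run is no evidence for the error rate of these calls, because some replicates within each cybrid were near duplicates. Per-array values were given for members past the threshold with a difference of at least 0.5 and for the largest of each other role, and those of GINS4 and PCNA were added after their values were seen. Members, lists and tests were chosen with earlier results of these data known. The number of arrays limits the precision.

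Replicate numbers were checked for pairing: deviations from the group means of same-numbered arrays correlated at 0.303, 0.231 and 0.208 over 7913 genes. Replicates 2 and 3 correlated across numbers as well (0.244 and 0.229). A fit with the number as a block is given where it changes a call of a named gene. Alternatives covered the offset, scaling, a level filter, the choice of probe set, the variance prior, gene length and each array left out.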

Additional observations from a re-analysis of the deposited data

How the results depend on the processing

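The counts of 13 members higher and 15 lower in 10A/143B stayed within 1.5 times of these values under all alternatives except those that change the probe sets. Without _x_at and _s_at probe sets, which left 37 members, 8 were higher and 9 lower, and with every probe set tested on its own 24 and 23 probe sets were. The median difference of the members, -0.03, became 0.0415 and 0.0434 in these settings, 0.0551 when probe sets were averaged per gene, -0.13 after median centring and -0.12 after quantile normalization. Calls of MCM10 and RPA1 were lost under both scalings, GINS1 under median centring, GINS2, RPA1 and RRM2 with averaged probe sets, and MCM2, MCM10, CDC45 and RPA1 without the intensity trend. Calls were also gained, for GINS3, LIG1 and ORC5 under both scalings, MCM7 under median centring and POLA2 under quantile normalization. Averaged probe sets brought in GINS4, MCM7 and RRM1, and the level filter ORC5 and POLA1. Leaving out 1 array gave 11 to 15 members higher and 12 to 18 lower. Over all genes 7042 passed, 4483 with replicates 2 and 3 averaged and 12744 of the single probe sets. With the replicate number as a block (paired) 7750 genes passed, with 15 members higher and 17 lower, and apart from POLA1, RPA3, LIG1 and RRM1 it changed no other call of a member. Signs turned for GINS2 (0.0418) and RFC1 (-0.0026) without _x_at and _s_at probe sets, where a dim probe set stood for the gene. The sign of GINS4 turned without replicate 1 of 468/143B (-0.33). It also turned with replicates 2 and 3 only, a setting added after the data were seen (-0.29). Without any other single array the difference of GINS4 lay between -0.0091 and 0.2273 and did not pass. Offsets of 1 and 64 changed no call of a member. A further 14 sign changes concerned members that did not pass in either setting. Intensity summaries other than the deposited ones were not used here.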
